A study of Mus musculus with 4 samples.

Results

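The regions described here are the DNase I hypersensitive regions around Fkbp5 on mouse chromosome 17, taken as every listed region that overlaps the mm9 window chr17:28480000-28720000, which holds Fkbp5 and its flanks. Of 202687 regions in 4 lists, 47 lay in this window of 240 kb: 15 in the Dex+E2 list, 13 in the Dex list, 6 in the E2 list and 13 in the untreated list. Joining regions that overlapped or touched gave 19 sites, of 103288 in the series, which are lettered A to S in order along the chromosome. The window was selected on maximum tag densities of these same libraries, because some of its sites were among the densest ones found with Dex, so every value below is a description of these libraries.

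Fkbp5 encodes FKBP51, a peptidyl-prolyl isomerase and co-chaperone of Hsp90. FKBP51 joins the Hsp90 complex that holds the glucocorticoid receptor (GR) and lowers the receptor's affinity for hormone, and since GR in turn activates Fkbp5 transcription, the gene is a textbook case of a short negative feedback loop. GR is known to act on Fkbp5 in many cell types through enhancers in introns and in flanking DNA, and binding of GR to an enhancer usually goes with greater access of nucleases to the DNA there.

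The cells were 7438 cells, a mouse mammary line in which GR fused to GFP and the estrogen receptor (ER) fused to Cherry are expressed from a tetracycline-regulated promoter. All 4 cultures had tetracycline withdrawn for 24 h, so that both tagged receptors were induced in untreated cells as well. Hormone was then given for 30 min: dexamethasone (Dex, a synthetic GR ligand) and estradiol (E2, the ER ligand) together at 100 nM each, Dex alone at 100 nM, E2 alone at 100 nM, or none. DNase-seq, which maps DNA that is open to the nuclease DNase I, was done on 1 library per condition, so no difference could be set against the spread between replicates and no test of a treatment was possible. The labelled cell type was not checked against marker genes, because gene positions in mm9 were not used here.

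For orientation, the start of Fkbp5 itself is shown as RefSeq gives it in another build, GRCm38.p6 (chr17:28486100-28486399 of that build, minus strand, 300 bases from 250 before to 50 after the start). These coordinates belong to GRCm38.p6, and their numbers cannot be compared with the mm9 positions of the sites. Which of the sites A to S holds this promoter was therefore not analysed here. Capitals mark GGGCGG, the GC box bound by Sp1-type factors, and CCAAT, on either strand. Both motifs were picked after the sequence had been looked at.
Fkbp5 promoter: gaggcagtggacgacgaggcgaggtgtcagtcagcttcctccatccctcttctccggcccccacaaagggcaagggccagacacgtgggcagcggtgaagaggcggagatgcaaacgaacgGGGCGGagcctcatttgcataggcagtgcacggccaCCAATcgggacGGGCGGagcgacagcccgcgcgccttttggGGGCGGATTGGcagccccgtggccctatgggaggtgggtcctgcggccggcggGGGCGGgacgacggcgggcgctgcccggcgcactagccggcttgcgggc

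This is a GC-rich promoter of the CpG island kind, with 32 CpG dinucleotides and 70.7% G and C, where the median of 32851 mouse promoters of the same length had 7 CpG and 52.7%. It held 4 matches to GGGCGG, which 35.7% of those promoters hold, and 2 matches to CCAAT, which 37.4% hold; 1 match of each kind adjoins the other. It held no match on either strand to the palindromic GR element, searched as GNACA and TGTNC with NNN between them (0.475% of promoters), to the ER element, searched as GGTCA and TGACC with NNN between them (0.0700%), or to TGANTCA, the AP-1 element (7.81%). The absence of a match says only that these letters do not occur in these 300 bases. The sequences of the sites themselves were not analysed here.

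Each region comes with a maximum tag density, the height of its summit, and an average tag density, both deposited by the authors after a scaling per library. Maximum densities moved in steps of 0.227 with Dex+E2, 0.245 with Dex, 0.200 with E2 and 0.255 in untreated cells, and 1 step was read as 1 tag. On the assumption of 1 scaling total for all libraries, the depth relative to the untreated library was 1.12 for Dex+E2, 1.04 for Dex and 1.28 for E2. At the 20687 sites found in all 4 lists of the series, the median maximum density was 15.4 with Dex+E2, 14.7 with Dex, 10.2 with E2 and 30.1 in untreated cells. Over the whole lists the median maximum density was 8.93 in untreated cells and at most 8.17 with hormone. At the 6024 sites listed with Dex+E2, with Dex and in untreated cells only, it was 7.49, 8.08 and 11.99 in that order. Fold differences are given relative to the library medians at sites in all 4 lists, with the deposited scale named where it is used. This scaling raises every ratio over untreated cells. Over the whole lists and at the 6024 sites, the medians of the Dex libraries lay closer to the untreated one. Scaling on those medians would raise the ratios of the Dex libraries over untreated cells less. Which scaling holds for weaker sites was not tested. Intervals in parentheses are 95% intervals for counting tags at the summit, and they cover counting error only. Where a list lacks a site, the authors' calling did not report it, and the density there is not known.

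Listed regions covered 9962 bp with Dex+E2, 10864 bp with Dex, 3348 bp with E2 and 7916 bp in untreated cells, and their median maximum density was 10.7, 14.0, 7.60 and 9.69 in that order. A density of at least 20, a round value taken after the data had been seen, was reached by 6 of 15 regions with Dex+E2, 5 of 13 with Dex, 0 of 6 with E2 and 3 of 13 in untreated cells. Over the whole lists such regions made up 16.2%, 14.6%, 10.3% and 24.02%.

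**Figure D1:**
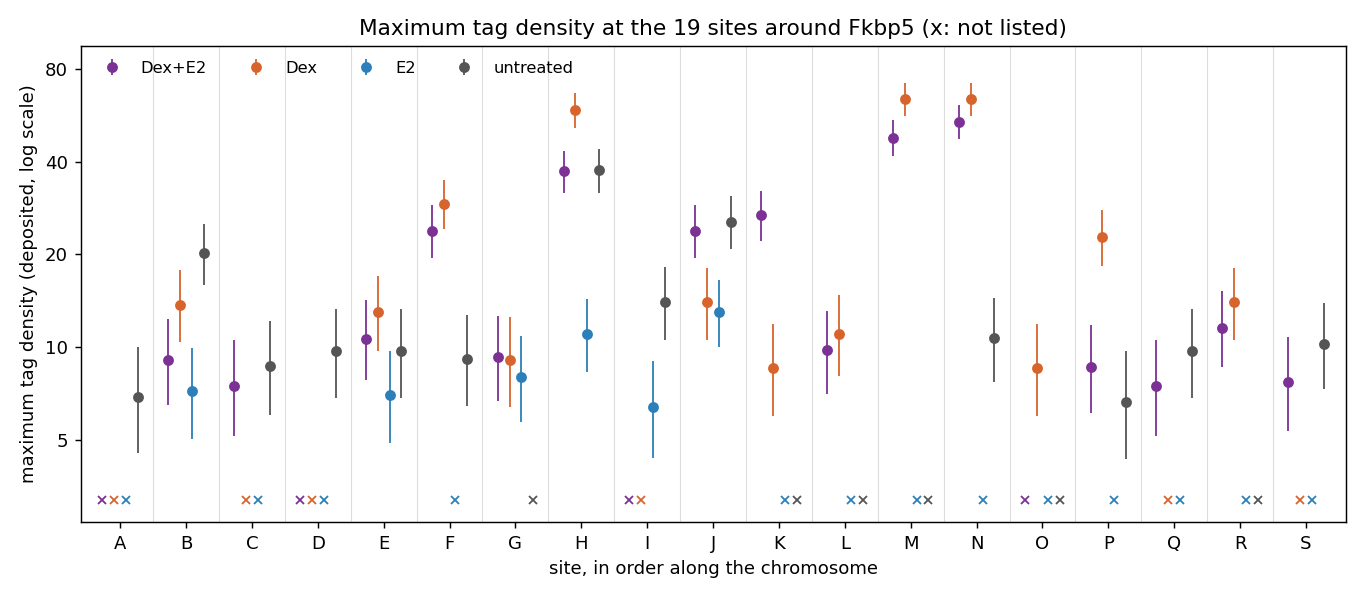
Maximum tag density (deposited scale, log axis) of the 19 sites in the Dex+E2, Dex, E2 and untreated libraries, with 95% counting intervals as bars; a cross at the foot marks a library that does not list the site. Sites M and N stand at 63.9 with Dex, M lacks an untreated value and N has 10.7 there, while neither is listed with E2.

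Sites K, L, M and R were listed in both Dex libraries and in neither other library, a pattern shown by 1.92% of all sites of the series. Site M (chr17:28649115-28650620 in the Dex list) led them. Its maximum density was 47.9 (41.6 to 54.8) with Dex+E2 and 63.9 (56.4 to 72.2) with Dex, from 211 and 261 tags at the summit. With Dex the next densest member of this group, R, had 14.0.

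Among the 1984 sites of the series with this pattern, M ranked 6 by density with Dex+E2 and 3 with Dex, where the group medians were 7.49 and 8.08. Site R (chr17:28682449-28683106), farther along the chromosome, had 11.6 (8.61 to 15.2) with Dex+E2 and 14.0 (10.6 to 18.1) with Dex. Site L (chr17:28627854-28628438) had 9.76 (7.06 to 13.1) and 11.0 (8.04 to 14.7) in the same libraries. At R and L the counting intervals of both Dex libraries overlapped.

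Site K differed from the rest of this group in which library was high. Its maximum density was 26.8 (22.2 to 32.1) with Dex+E2 (chr17:28625130-28625928) and 8.57 (5.97 to 11.9) with Dex (chr17:28625412-28625769). The region was 798 bp wide with Dex+E2 and 357 bp with Dex. With Dex+E2, K ranked 33 among the 1984 sites of its pattern, against 895 with Dex.

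Sites F, N and P were listed with Dex+E2, with Dex and in untreated cells, but not with E2 (5.83% of all sites). Site N (chr17:28652276-28653515 in the Dex list) lies close to M, with 3.03 kb between their midpoints. It had 54.0 (47.4 to 61.3) with Dex+E2, 63.9 (56.4 to 72.2) with Dex and 10.7 (7.72 to 14.5) in untreated cells. Its density with Dex, 261 tags, was the same as that of M, and the untreated interval lay far below those of both Dex libraries. Of 6024 sites of the series in these 3 lists, N ranked 5 with Dex+E2 and with Dex, but 3482 in untreated cells.

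Site F (chr17:28556555-28557955), 92.6 kb to the other side of M, had 23.8 (19.5 to 28.8) with Dex+E2, 29.1 (24.1 to 34.9) with Dex and 9.18 (6.43 to 12.7) in untreated cells. Both Dex libraries were above the untreated one with no overlap of intervals. Site P (chr17:28655198-28656323), next to N, had 8.62 (6.10 to 11.8) with Dex+E2, 22.8 (18.4 to 27.9) with Dex and 6.63 (4.33 to 9.72) in untreated cells. At P the Dex library alone stood out, and the Dex+E2 and untreated intervals overlapped. Site O (chr17:28654593-28655058), a region of 8.57 (5.97 to 11.9) between N and P, was listed with Dex only, as were 14.3% of all sites.

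M, N, O and P thus form a cluster of 7.21 kb, and K and L lie 2.62 kb from each other. Over the 1984 sites of the series listed in both Dex libraries only, the median distance to the nearest other such site was 244 kb. For M it was 21.7 kb, to L, and for R 32.9 kb, to M. Such sites within a window of 240 kb had to lie closer to each other than this median. The window was also chosen for sites dense with Dex, so these distances are no evidence of clustering. N, O and P have other patterns and are not part of these distances. The spacing of all sites of the series was not analysed here.

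**Figure D2:**
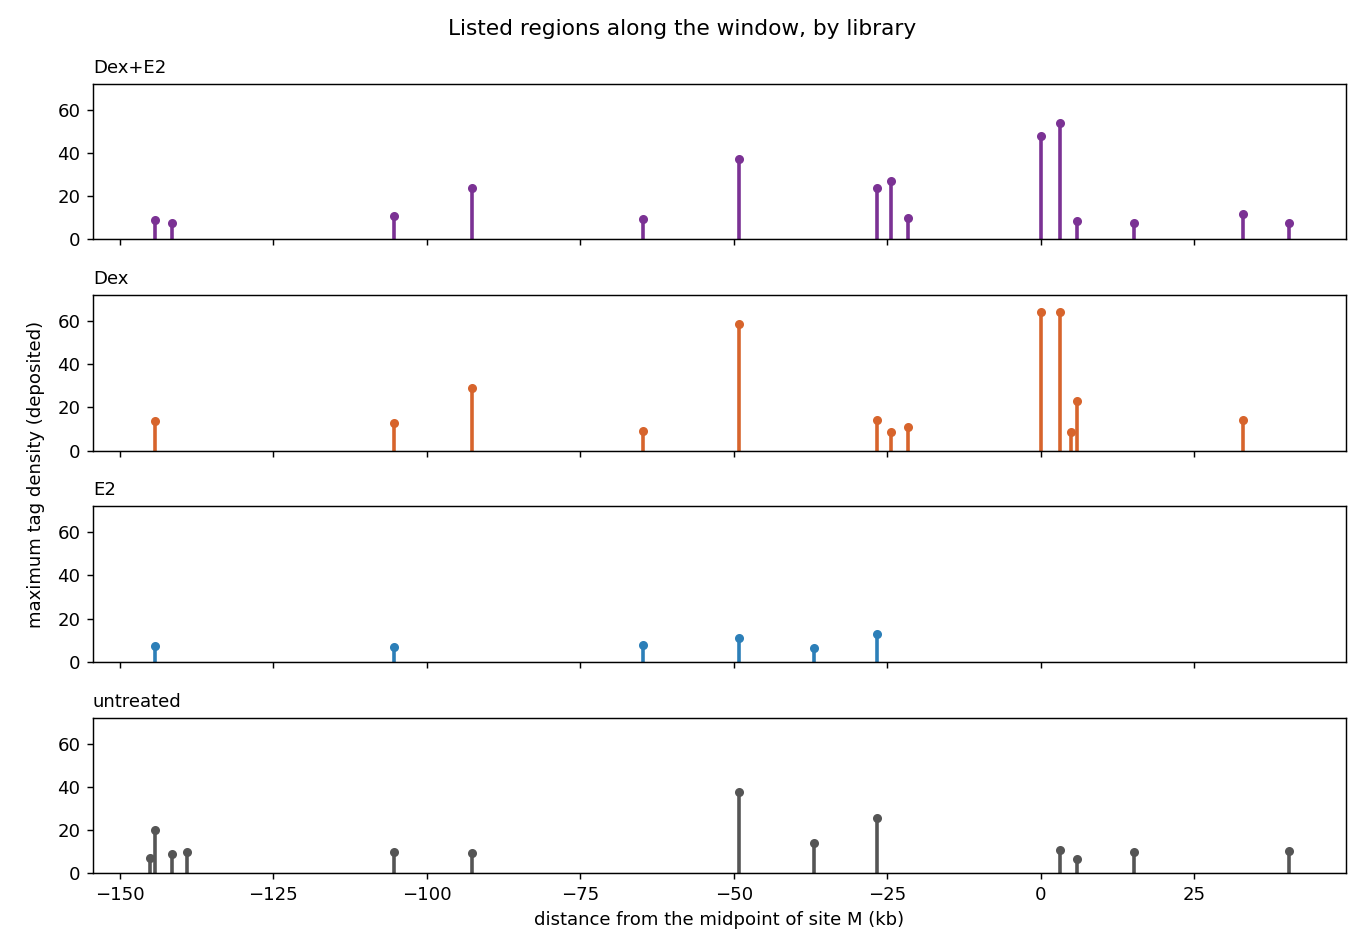
Maximum tag density of each listed region (deposited scale, linear axis) against its site's distance in kb from the midpoint of site M, with a panel each for Dex+E2, Dex, E2 and untreated cells. The cluster at M and N is high in both Dex panels, has lower regions in the untreated panel (10.7 at N and 6.63 at P) and is empty in the E2 panel.

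Sites B, E, H and J were listed in all 4 libraries, as were 20687 of the 103288 sites of the series. Site H (chr17:28600081-28601348 in the Dex list) was the densest of the window in untreated cells. It had 37.2 (31.7 to 43.4) with Dex+E2, 58.8 (51.6 to 66.7) with Dex, 11.0 (8.29 to 14.3) with E2 and 37.5 (31.7 to 44.1) in untreated cells. The Dex value was the highest and the E2 value by far the lowest, and the Dex+E2 and untreated intervals nearly coincided on the deposited scale. In its own list, H stood among the top 5.76% with Dex+E2, 1.79% with Dex, 27.5% with E2 and 11.99% in untreated cells.

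Site J (chr17:28622818-28623659 in the Dex+E2 list) was the densest site with E2. It had 23.8 (19.5 to 28.8) with Dex+E2, 14.0 (10.6 to 18.1) with Dex, 13.0 (10.0 to 16.6) with E2 and 25.5 (20.8 to 31.0) in untreated cells. J was thus lower in both libraries with a single hormone than in untreated and co-treated cells on the deposited scale, and the intervals of these pairs did not overlap. Its neighbour K, 1471 bp from it, was also denser with Dex+E2 than with Dex.

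Site B (chr17:28505233-28505889 in the untreated list) had 9.07 (6.48 to 12.4) with Dex+E2, 13.7 (10.4 to 17.8) with Dex, 7.20 (5.04 to 9.97) with E2 and 20.1 (16.0 to 25.1) in untreated cells. Untreated cells had the highest value at B, but the order follows that of the library medians in its highest and lowest members. Site E (chr17:28544213-28544974 in the Dex list) had 10.7 (7.83 to 14.2), 13.0 (9.72 to 16.98), 6.999 (4.88 to 9.73) and 9.69 (6.86 to 13.3) in Dex+E2, Dex, E2 and untreated cells. All neighbouring values in the order of E had overlapping intervals.

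The remaining sites had maximum densities of at most 14.0. Site G (chr17:28584743-28585339 in the E2 list) was the only member in every hormone list and not in the untreated one, a pattern of 0.359% of all sites. It had 9.30 (6.67 to 12.6) with Dex+E2, 9.06 (6.38 to 12.5) with Dex and 7.999 (5.71 to 10.9) with E2, values that overlapped throughout. Sites C, Q and S were listed with Dex+E2, at 7.49 to 7.71, and in untreated cells, at 8.67 to 10.2 (3.56% of all sites had this pattern). Site I (chr17:28612512-28613406) was listed with E2, at 6.40, and in untreated cells, at 14.0, and in neither Dex library (1.18%). Sites A and D were listed in untreated cells only, at 6.89 and 9.69 (26.0%). No site of the window was listed with E2 alone or with Dex+E2 alone, patterns of 6.97% and 11.5% of all sites.

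The sites next to the edges of the window had maximum densities of at most 10.7 on both sides of each edge. The nearest site outside on the side of A was listed in untreated cells only, at 10.7, and so was the nearest one outside on the side of S, at 6.89. Inside the window, A had 6.89 in untreated cells, and S had 7.71 with Dex+E2 and 10.2 in untreated cells.

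The Dex and untreated libraries differ by label in Dex alone, but with 1 library each, treatment and library cannot be told apart. Of the 13 sites listed with Dex, 6 (G, K, L, M, O and R) were missing from the untreated list, where 35.5% of all Dex sites were. In the other direction, 6 of the 13 untreated sites (A, C, D, I, Q and S) were missing with Dex, against 51.3% of all untreated sites. Of the 7 sites in both lists, 5 were at least 2-fold denser with Dex relative to the library medians (11.8% of all sites in both lists were), and none was 2-fold less dense (0.406%). As deposited, 3 of the 7 were at least 2-fold denser (1.10%). Since the window was chosen for sites dense with Dex, these counts are no evidence about the locus.

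Site N was 12.2-fold (8.80 to 17.4) denser with Dex than untreated relative to the medians, and 5.97-fold as deposited. Site P was 7.03-fold (4.51 to 11.3) denser relative to the medians and 3.43-fold as deposited, and site F 6.50-fold (4.44 to 9.72) and 3.17-fold. Site H was 3.21-fold (2.60 to 3.97) denser, or 1.57-fold as deposited, and site E 2.74-fold (1.77 to 4.28), or 1.34-fold. These 5 sites were higher with Dex on both scales, but as deposited the counting interval of E (0.866 to 2.09) holds a ratio of 1.

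The other two sites in both lists turned with the scale. J stood at 1.12-fold (0.795 to 1.57) relative to the medians and 0.547-fold as deposited, and B at 1.39-fold (0.972 to 1.99) and 0.681-fold. The median log2 ratio of the 7 sites was 1.68 relative to the medians, where that of all 31784 sites in both lists was 0.16.

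**Figure D3:**
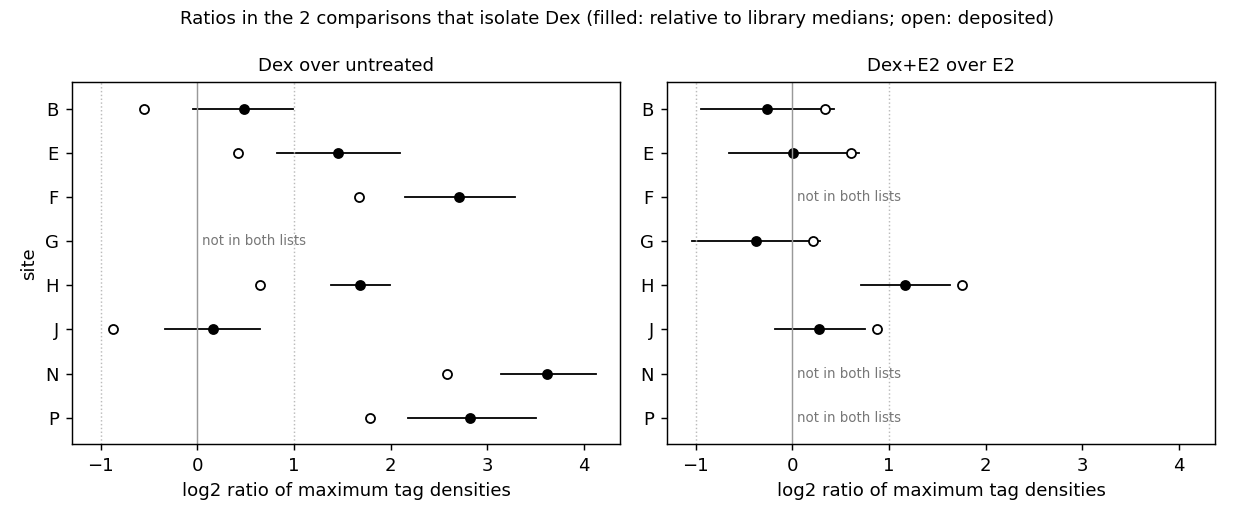
Log2 ratio of maximum tag densities for Dex over untreated (left) and Dex+E2 over E2 (right) at the sites listed in both libraries of at least 1 of these comparisons. Filled points with 95% counting intervals are relative to the library medians, open points are as deposited, and dotted lines mark 2-fold; H lies above 2-fold in both panels on the filled points, whereas N, F and P have no E2 value.

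Dex+E2 against E2 changes the same hormone in the presence of E2, in other libraries. Of the 15 sites listed with Dex+E2, 10 (C, F, K, L, M, N, P, Q, R and S) were missing with E2, where 49.4% of all Dex+E2 sites were, and 1 of 6 E2 sites (I) was missing with Dex+E2, against 28.5%. The whole Dex+E2 list held 50061 regions and the E2 list 35496, the fewest of the series, and C, Q and S, which were also missing with Dex, are among the 10. For M, N, K and F, the highest E2-missing sites at 47.9, 54.0, 26.8 and 23.8 with Dex+E2, no fold can be given against a list that lacks them. The weakest region of the window that the E2 list did hold was I, at 6.40.

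In all 5 sites were in both lists, and H was the only one at least 2-fold denser with Dex+E2 (1.66% of all such sites were). It was 2.24-fold (1.64 to 3.09) denser relative to the medians and 3.38-fold as deposited. By this scale J was at 1.21-fold (0.881 to 1.68), E at 1.01-fold (0.636 to 1.61), B at 0.833-fold (0.518 to 1.35) and G at 0.769-fold (0.485 to 1.22) relative to the medians, and none was 2-fold less dense (1.20%). As deposited all 5 were above 1, as were 89.0% of all sites in both lists, with J at 1.83-fold, E at 1.52-fold, B at 1.26-fold and G at 1.16-fold.

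The E2 library listed the fewest regions in the window, and its densest one, J, had 13.0. Of the 6 E2 sites 1 (G) was missing in untreated cells, where 27.6% of all E2 sites were, and 8 of 13 untreated sites (A, C, D, F, N, P, Q and S) were missing with E2, against 62.5%. Of the 5 sites in both lists, E was 2.13-fold (1.31 to 3.47) denser with E2 relative to the medians (14.4% of such sites were at least 2-fold denser), yet 0.722-fold as deposited. J stood at 1.504-fold (1.08 to 2.08), I at 1.35-fold (0.842 to 2.12), B at 1.05-fold (0.690 to 1.58) and H at 0.866-fold (0.623 to 1.19), and none was 2-fold less dense on this scale (0.380%). As deposited all 5 were below 1, where 5.53% of all such sites were above it, and 3 of the 5 were at least 2-fold less dense (74.7%): B at 0.357-fold, H at 0.293-fold and I at 0.456-fold. J was at 0.510-fold as deposited.

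Adding E2 to Dex bears on whether the Dex-associated sites differed under co-treatment. Of the 13 Dex sites 12 were also listed with Dex+E2, all but O, where 41.1% of all Dex sites were missing. C, Q and S, 3 of 15 Dex+E2 sites, were missing with Dex, against 39.1%. Relative to the medians 10 of the 12 had a lower density with Dex+E2 than with Dex and 2 a higher one; as deposited 9 were lower and 3 higher (50.7% of all such sites were higher), G being the site that turned. The median log2 ratio was −0.35 relative to the medians, where that of all 29066 sites in both lists was −0.07. The share of all these sites that were lower relative to the medians was not analysed here. Since the window was chosen for sites dense with Dex, these values are no evidence about an effect of E2.

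The counting interval of the relative log2 ratio lay below 0 at 5 sites, above 0 at 2 and held 0 at 5. As deposited the interval lay below a ratio of 1 at 3 sites (H, M and P), above it at 2 and held it at 7, N and B being those that changed. How often such intervals occur over all sites in both lists was not analysed here, so these counts have no background beside them. Among the densest sites, M was at 0.713-fold (0.592 to 0.859), N at 0.805-fold (0.672 to 0.963) and H at 0.603-fold (0.491 to 0.738) with Dex+E2 against Dex; as deposited M was at 0.749-fold, N at 0.845-fold and H at 0.633-fold. By average density N turned, with a log2 ratio of 0.05 against −0.31 for the maximum. F was at 0.779-fold, with an interval (0.593 to 1.02) that holds 1, and B at 0.630-fold (0.409 to 0.963).

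Sites P and K moved apart. P was at 0.361-fold (0.240 to 0.531), the only site at least 2-fold less dense with Dex+E2 (1.32% of all such sites were), and K at 2.97-fold (2.02 to 4.47), the only one at least 2-fold denser (1.58%). J was at 1.63-fold (1.17 to 2.29). As deposited P was at 0.379-fold, K at 3.12-fold and J at 1.71-fold. With 1 library each, the spread between replicates that these ratios would have to exceed is not known.

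**Figure D4:**
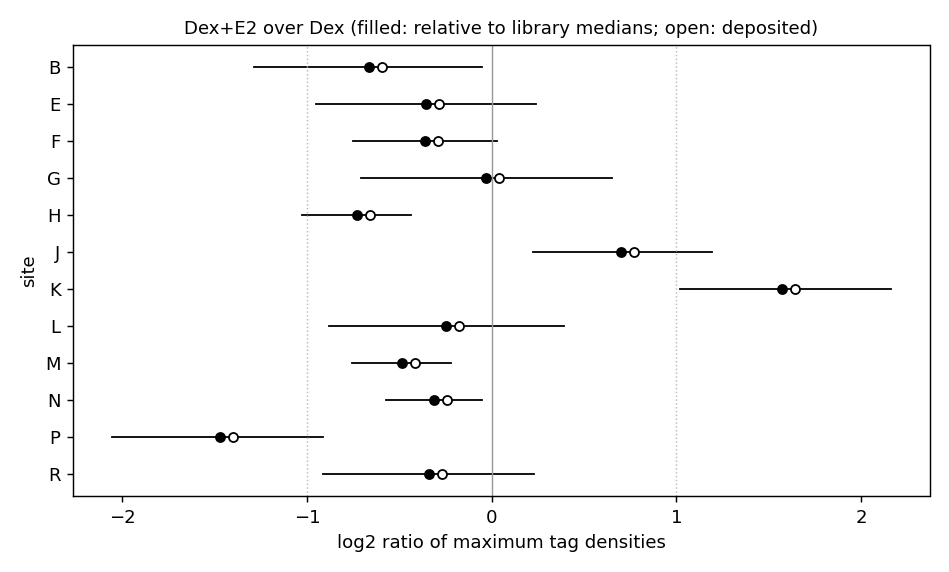
Log2 ratio of maximum tag densities, Dex+E2 over Dex, at the 12 sites listed in both libraries. Filled points with 95% counting intervals are relative to the library medians and open points are as deposited; K (2.97-fold) and P (0.361-fold) lie farthest from 0 on opposite sides.

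Dex+E2 was set against the same untreated library as Dex was, so these values share its error with those above. Of 15 Dex+E2 sites, 5 (G, K, L, M and R) were missing in untreated cells, where 32.7% of all Dex+E2 sites were, and 3 of 13 untreated sites (A, D and I) were missing with Dex+E2, against 50.8%. Of the 10 sites in both lists, 4 were at least 2-fold denser with Dex+E2 relative to the medians (10.7%) and none 2-fold less dense (1.09%). They were N at 9.83-fold (7.06 to 14.0), F at 5.06-fold (3.44 to 7.61), P at 2.54-fold (a log2 of 1.34, 0.59 to 2.12) and E at 2.15-fold (1.37 to 3.38). H stood at 1.94-fold (1.54 to 2.44), but at 0.992-fold as deposited. As deposited N and F were at least 2-fold denser (1.36%), at 5.04-fold and 2.59-fold, while P was at 1.30-fold and E at 1.10-fold, and B was at least 2-fold less dense (35.9%), at 0.450-fold.

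With Dex the 5 regions of at least 20 were 1505 bp (M), 1400 bp (F), 1267 bp (H), 1239 bp (N) and 1125 bp (P) wide, each above the median of 1046 bp over the 7460 Dex regions of that density. With Dex+E2 the same sites were 1197 bp (M), 1285 bp (F), 806 bp (H), 1042 bp (N) and 490 bp (P) wide, and in untreated cells F, H, N and P were 625, 1037, 696 and 266 bp wide. The Dex region was the widest of the libraries at each of these sites, but they were picked for their density with Dex. J and K reached 20 with Dex+E2 and not with Dex. There the Dex+E2 region was wider than the Dex region (841 against 558 bp at J, 798 against 357 bp at K). The order of widths is therefore no evidence about Dex. Of the 6 Dex+E2 regions of at least 20, 3 (F, M and N) were wider than the median of 887 bp over such regions of that list, and H, J (841 bp) and K (798 bp) were not. All 3 such untreated regions, B (656 bp), H and J (732 bp), were narrower than the untreated median of 1053 bp. At N the average density was 14.0 with Dex+E2, 11.9 with Dex and 2.40 in untreated cells, so the co-treated library, with the narrower region, had the higher average.

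**Figure D5:**
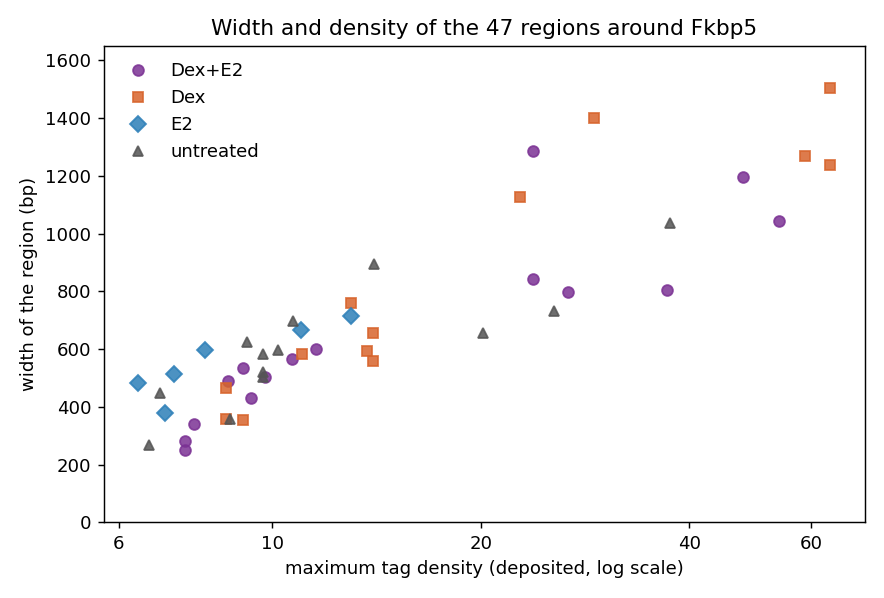
Width in bp (linear axis) against maximum tag density (deposited scale, log axis) for the 47 regions, marked by library. The widest region is M with Dex, at 1505 bp and a density of 63.9, and all E2 regions lie at or below 713 bp and 13.0.

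M and N shared the highest density with Dex in the window, so the sites elsewhere with the most similar densities were looked up for both, by the Euclidean distance of log2 maximum densities among sites in the same lists. For M, 1980 sites in both Dex lists only were searched, over 2 libraries. The nearest was chr18:9485239-9487867, with 41.1 with Dex+E2 and 63.7 with Dex, followed by chr2:22507293-22507916, with 53.1 and 55.8. For N, 6021 sites were searched over 3 libraries. The nearest was chr16:5119212-5120125, with 54.9 with Dex+E2, 56.6 with Dex and 12.8 in untreated cells, and the next chr16:52094398-52096381, with 44.2, 52.7 and 11.7. Sites like M and N in density thus occurred on other chromosomes, and the genes near them were not analysed here.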

How the data were processed

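DNase-seq covered 4 libraries of 7438 cells, 1 per condition, grouped by the treatment in the labels. The authors deposited a list of hypersensitive regions for each. Per the file headers, each region carries 2 tag densities, a maximum and an average (a signal that the authors had scaled, to a total that is not stated), plus a Z score and a p-value. The deposited score and the deposited p-value refer to the background of the region's own library and were not used to compare libraries. The submitters' processing notes name build mm9 and CASAVA 1.8. How reads were aligned and regions called is not given in the sources used here, nor is whether positions start from 0 or 1. Width is end minus start.

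Regions sharing at least 1 bp, or touching, were joined into sites, and each site took the highest density of its regions in a library. Densities below 500 tags were whole multiples of the step within 0.02 tags. Ratios exist only for sites in both lists and are relative to library medians over sites in all 4 lists. Ratio intervals come from exact Clopper-Pearson limits on the share of tags, density intervals from exact Poisson limits, both at the 95% level. The 5 comparisons got no p-value, since each condition has 1 library. In simulated data with sites far apart all 2000 planted presence patterns were recovered, which checks the joining code only. With plain Poisson counts 1924 of 2000 ratio intervals held the planted ratio. Neither check covers sites as close as O and P, or summits taken as the maximum of a called region.

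The members and lists were chosen with earlier results of these data known. By rule, full values are given for sites missing in untreated cells but listed with Dex or Dex+E2, for sites in all 4 lists and for the 3 densest untreated sites; F, N and P were added after their values were seen. Alternatives covered the joining distance, the overlap, list length, the window, the density measure, the scaling and the fold limit. The promoter came from RefSeq (GRCm38.p6), matched by symbol. The software was Python 3.11.15 with SciPy 1.17.1, pandas 2.3.3, NumPy 2.4.6 and, for plots, Matplotlib 3.10.9.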

Additional observations from a re-analysis of the deposited data

Results flagged for a closer look

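At sites B and E, both found in all 4 lists, the ratio relative to the library medians had opposite signs for the same hormone in the 2 settings in which it was given. These differences between single libraries were not tested. At site B the log2 ratio for Dex was 0.48 without E2 and −0.26 with E2, a difference of 0.74. At the same site the log2 ratio for E2 was 0.08 without Dex and −0.67 with Dex, again a difference of 0.74, since both differences are made of the same 4 values. Of these 4 ratios at B, only the ratio of Dex+E2 over Dex had a counting interval without 0 (−1.29 to −0.05). As deposited the signs at B were other ones: Dex stood at −0.56 without E2 and 0.33 with E2, and E2 at −1.48 without Dex and −0.60 with Dex. On that scale the interval of Dex+E2 over Dex holds a ratio of 1 (0.662-fold, 0.430 to 1.01), and those of Dex over untreated (0.681-fold, 0.474 to 0.971) and E2 over untreated (0.357-fold, 0.234 to 0.536) do not. At site E the log2 ratio for E2 was 1.09 without Dex and −0.35 with Dex, a difference of 1.45. The counting interval of the ratio without Dex lay above 0 (0.39 to 1.79), and that with Dex held 0 (−0.95 to 0.24). By average density these ratios were 0.57 and −0.20. As deposited, E2 stood at −0.47 without Dex and −0.28 with Dex at site E. The opposite signs for E2 at both sites thus exist only relative to the medians, and those for Dex at B turn round with the scale.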

How the results depend on the processing

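The counts of sites listed with Dex and not untreated (5 to 7 over the alternatives), with Dex+E2 and not with E2 (10 to 11) and in both Dex libraries only (4 to 5) stayed within 1.5 times the reported 6, 10 and 4 when regions within 150 bp were joined, when an overlap of 50% of the shorter region was asked for, with lists of equal length and with a window 50 kb wider on both sides. The wider window holds the reported one, so its counts could not fall. It held 32 sites in place of 19. Listed with Dex and not untreated were 6 of 19 Dex sites there, in place of 6 of 13. Listed with Dex+E2 and not with E2 were 11 of 20, in place of 10 of 15. In both Dex libraries only were 4 of 32 sites, in place of 4 of 19. Sites at least 2-fold denser after Dex than untreated numbered 5 of 7, but 3 on the deposited scale, 3 as tags at the summit and 3 with a 4-fold limit. For Dex+E2 over E2 the count was 1 of 5, and 0 with a 4-fold limit. The ratio of site E for E2 over untreated changed sign, to −0.47 as deposited and −0.12 as tags, scales that leave out the division by library medians. Intervals of Dex+E2 over Dex lay below no difference at 5 of 12 sites, and at 3 as deposited. Of all 39 ratios, 14 changed sign on the deposited scale, 12 as tags and 4 with average density. No paired analysis was possible because each condition has 1 library, and no library could be left out. With 26 to 42 tags at the weaker untreated summits, single ratios have wide counting intervals.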
